A study of Mus musculus with 20 samples.

Results

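Mouse induced pluripotent stem cell (iPSC) lines of Nanog-GFP origin were compared, 2 made with the factor set SNEL (Sall4, Nanog, Esrrb and Lin28) and 1 with the set OSKM (Oct4, Sox2, Klf4 and Myc). The arrays were chosen by line name: Nanog-GFP SNEL#2 and Nanog-GFP SNEL#3 (2 arrays each) against Nanog-GFP OSKM#2 (2 arrays), 6 of the 20 arrays of the series. The labels grade SNEL#2 as high quality, SNEL#3 as good and OSKM#2 as poor, without saying how the grade was measured. Factor set and grade cannot be told apart in these lines, and with 1 OSKM line each difference is one between lines. All lines grew untreated in 2i medium without feeder cells. The labels do not name the cell type that was reprogrammed and do not state if both arrays of 1 line hold RNA of different cultures. The p-values therefore measure the spread between the 2 arrays of a line, which may be technical. That spread was pooled over all 10 lines of the series. Nanog-GFP ESCs, an embryonic stem cell line of the same name (2 arrays), are given beside the iPSC lines as a reference level.

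Reprogramming factors are transcription factors and RNA-binding proteins that, when expressed in a differentiated cell, install the self-sustaining gene network of pluripotent cells. OSKM is the set with which iPSCs were first made, and Klf4 and Myc are also growth regulators. Mouse iPSCs are commonly judged by whether they can form a whole animal, and the imprinted Dlk1-Dio3 locus, whose noncoding RNAs are made from the maternal copy, is known to be silent in many mouse iPSC lines of low potency.

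Expression was measured with 1-colour Agilent arrays. A level is the log2 processed signal of a probe minus the 75th percentile of its array, so that 0 marks a probe at that percentile. Between 48.9% and 58.8% of the probes were well above background on the 4 SNEL arrays, against 61.1% and 64.1% on the OSKM#2 arrays and 63.8% and 66.2% on those of the ESCs. All 10 fixed markers of pluripotent cells were well above background on both arrays of each of these lines, and their summed linear level was 975.45 to 1040.3 in OSKM#2, 1041.19 to 1096.95 in SNEL#2, 1088.74 to 1181.84 in SNEL#3 and 1030.22 to 1115.81 in the ESCs. The 12 fibroblast markers summed to 1.43 to 2.56 in the iPSC lines and 10.65 to 11.24 in the ESCs. On both arrays 6 of them were well above background in OSKM#2, 7 in SNEL#2, 2 in SNEL#3 and 11 in the ESCs. These sums are mostly Thy1 in OSKM#2 (level 0.74 and 0.78) and SNEL#3 (0.14 and 0.30). In SNEL#2 Thy1 was −0.58 and −1.71. Col1a2 was −0.72 and −0.73 in SNEL#2, −3.14 and −3.52 in OSKM#2 and −3.61 and −3.77 in SNEL#3, so like sums do not mean like markers. Postn, Lum and Prrx1 were not well above background on any iPSC array. The Y-linked genes Ddx3y (−8.23 to −7.92) and Eif2s3y (−8.07 to −7.72) were not well above background in the ESCs, while their levels in the iPSC lines were −0.22 to 1.01 and 0.80 to 3.16.

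Over 27069 genes, the 2 SNEL lines lay nearer to each other than to OSKM#2. The root mean square log2 difference was 0.627 to 0.790 between arrays of SNEL#2 and SNEL#3, 0.830 to 0.892 between SNEL#2 and OSKM#2 and 0.905 to 1.017 between SNEL#3 and OSKM#2. The 2 arrays of a line differed by 0.494 in SNEL#2, 0.517 in OSKM#2 and 0.722 in SNEL#3, so the distance between the SNEL lines overlapped the distance within SNEL#3. Distances to the ESCs were 0.798 to 0.949 for SNEL#2, 0.960 to 1.053 for SNEL#3 and 0.820 to 0.958 for OSKM#2. SNEL#2 and OSKM#2 were about equally far from the ESCs.

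A gene was called when limma gave a Benjamini-Hochberg adjusted p below 0.05 against OSKM#2 for both SNEL lines, with the same sign, and when it was well above background on every array of the brighter side. By this rule 3184 genes were higher in both SNEL lines (11.8% of those tested) and 3056 were lower (11.3%). The lower genes differed by more: 1138 were at least 2-fold lower in both lines (4.2%) and 331 at least 2-fold higher (1.22%). Of the 3056 lower genes, 304 were not well above background on any SNEL array, whereas 11 of the 3184 higher genes were not on either OSKM#2 array. The share of detected probes was also lower on the SNEL arrays, and its part in these counts was not tested. Of the called genes, 3168 higher and 2406 lower ones were well above background on all 6 arrays. A separate fit of only probes well above background on all 6 arrays (19114 genes) called 3372 higher and 2519 lower. Both SNEL lines were set against the same OSKM#2 arrays, so the like values in the plot of the 2 differences are partly built in.

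**Figure D1:**
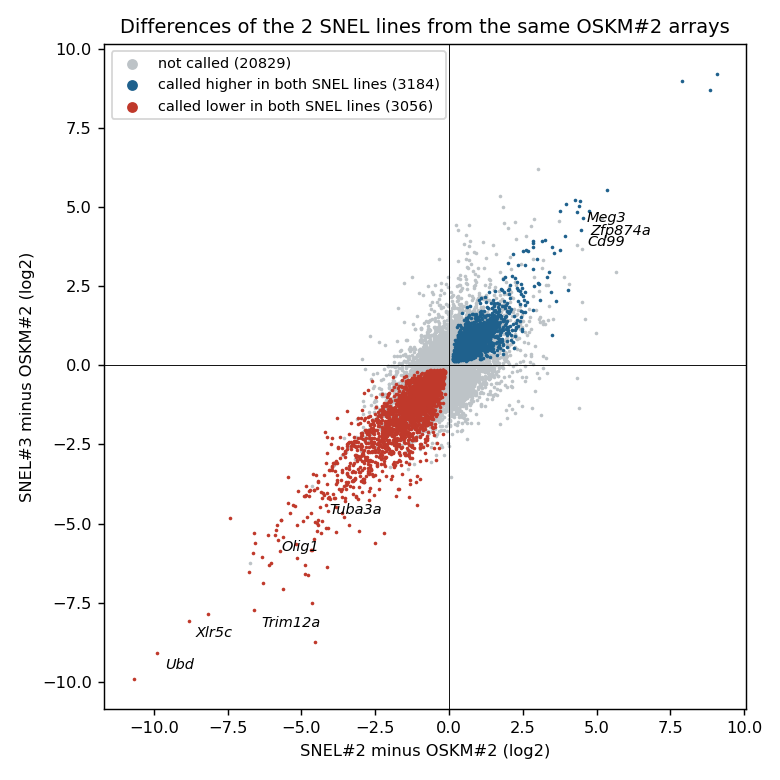
Log2 difference of SNEL#2 (x axis) and SNEL#3 (y axis) from OSKM#2 for each of 27069 genes. Blue points are the 3184 genes called higher, red points the 3056 called lower in both SNEL lines and grey points the rest, and 1138 of the lower but 331 of the higher calls are at least 2-fold in both lines.

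At most probes, noncoding RNAs were higher in the SNEL lines along a stretch of the Dlk1-Dio3 locus. Meg3, the long noncoding RNA at the start of its noncoding part, had levels of 1.57 and 1.82 in OSKM#2, 6.12 and 6.12 in SNEL#2, 6.75 and 6.71 in SNEL#3 and 5.30 and 5.30 in the ESCs. It was 26.5-fold higher in the SNEL lines (log2 4.73 ± 0.07, SE, limma adjusted p = 2.39e-13 for SNEL#2 and 7.71e-14 for SNEL#3). Mirg, the microRNA host transcript at the far end, had −0.32 and −0.20 in OSKM#2, 4.18 and 4.20 in SNEL#2, 4.96 and 4.92 in SNEL#3 and 2.63 and 2.44 in the ESCs, a difference of 4.82 ± 0.20 (limma adjusted p = 6.63e-09 and 1.37e-09). For both genes OSKM#2 stood below the other lines and the SNEL lines above the ESCs, with no overlap between arrays. The protein-coding genes of the locus did not pass in both lines. Dlk1, a Notch-like growth inhibitor made from the paternal copy, was −2.61 and −2.78 in OSKM#2, −2.15 and −2.37 in SNEL#2 and −2.35 and −2.83 in SNEL#3. Dio3, a thyroid hormone deiodinase, was −2.15 and −2.04 in OSKM#2, −1.83 and −1.81 in SNEL#2 and −1.29 and −1.22 in SNEL#3, and passed for SNEL#3 alone (limma adjusted p = 0.11 for SNEL#2 and 0.000102 for SNEL#3).

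Probes of 60 bases for Meg3 and Mirg, 2 of each, are shown because they locate the measurement along the locus. They are given as in the scanner files, with mm9 coordinates on the plus strand, and lie in noncoding RNAs.
Meg3 probe, chr12:110799558-110799617: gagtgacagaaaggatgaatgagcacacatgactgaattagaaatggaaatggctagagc
Meg3 probe, chr12:110809678-110809737: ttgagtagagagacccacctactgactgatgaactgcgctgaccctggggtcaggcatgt
Mirg probe, chr12:110979653-110979712: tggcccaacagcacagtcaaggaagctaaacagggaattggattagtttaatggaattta
Mirg probe, chr12:110987569-110987628: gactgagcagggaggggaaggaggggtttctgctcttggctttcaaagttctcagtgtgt

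The difference was alike at each of these positions, although the levels differed between probes. In the order printed, SNEL#2 minus OSKM#2 was 3.97, 4.42, 4.21 and 4.45, and SNEL#3 minus OSKM#2 was 4.40, 5.03, 5.11 and 5.20. Levels of different probes cannot be compared with each other. Between the first Meg3 and the last Mirg probe, a stretch of 204.9 kb, 61 probes passed the filter, 51 of them named only by position. In 48 of the 61 all 4 SNEL values lay above both OSKM#2 values, against 26.8% of all probes that passed (19.8% lay below). On the plus strand, the strand of Meg3 and Mirg, this held for 39 of 44 probes, with median differences of 3.44 for SNEL#2 and 4.29 for SNEL#3. On the minus strand it held for 9 of 17 probes, with medians of 1.11 and 1.61. The difference was not even along the stretch. From 66.5 to 67.9 kb after the first Meg3 probe it held for no probe. Between 151.4 and 185.7 kb no probe passed the filter. At these 2 edges the differences were 0.78 and 0.46 for SNEL#2 and 0.07 and 0.54 for SNEL#3.

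**Figure D2:**
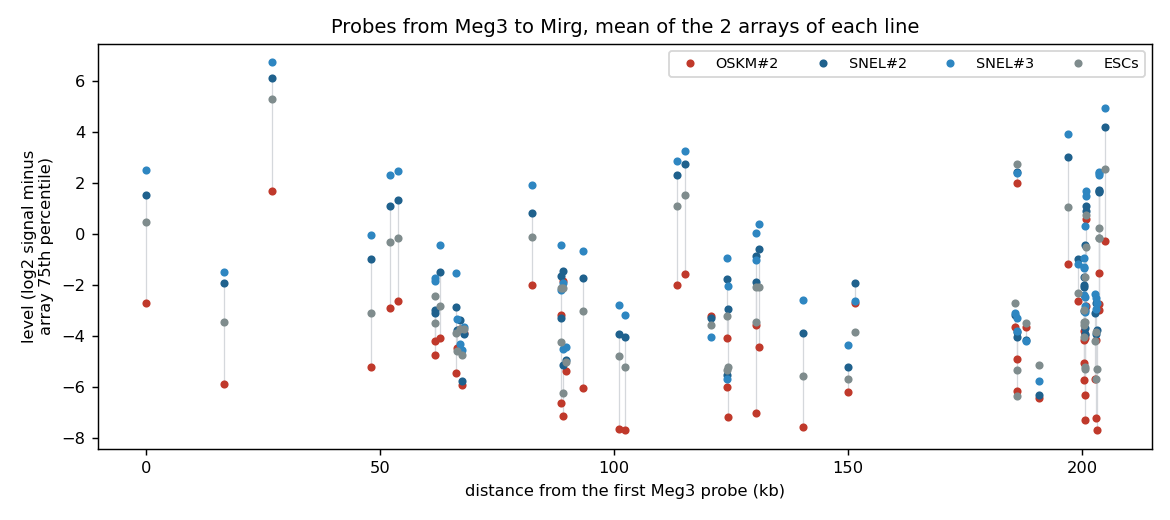
Mean level of the 2 arrays of each line (y axis, log2 signal minus the array's 75th percentile) for 61 probes by distance from the first Meg3 probe (x axis, kb). Grey lines join the values of 1 probe, and OSKM#2 (red) lies below both SNEL lines (blue) and the ESCs (grey) at most probes, including those of Meg3 and Mirg.

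Among the 8 reprogramming factors 5 were called higher and 0 lower in the SNEL lines, beside 11.8% and 11.3% of all genes, and the largest difference was that of a factor of the OSKM set. Klf4, a zinc finger factor of naive pluripotency, had levels of 4.39 and 4.36 in OSKM#2, 5.66 and 5.68 in SNEL#2, 5.57 and 5.58 in SNEL#3 and 5.09 and 5.18 in the ESCs, and was 2.37-fold higher (1.25 ± 0.06). Myc, a growth regulator, was −1.72 and −1.76 in OSKM#2, −1.12 in both SNEL#2 arrays, −0.59 in both SNEL#3 arrays and −4.23 and −4.27 in the ESCs (0.88 ± 0.09). All 3 iPSC lines thus stood above the ESCs in Myc. Sall4 (0.46 ± 0.07), Sox2 (0.39 ± 0.07) and Esrrb (0.41 ± 0.08), core factors of the network, were higher by less. Esrrb lost its call without OSKM#2 replicate 1, OSKM#2 replicate 2 or SNEL#3 replicate 1 (larger limma adjusted p of the 2 lines 0.0686, 0.136 and 0.149), and Sall4 when its 3 probes were averaged (limma adjusted p = 0.227). Quantile normalization ended the call of Esrrb too (0.432). In the value table of the authors the count fell to 3, without Sox2 (0.0791) and Esrrb (0.103). Nanog was 6.81 and 6.74 in OSKM#2, 6.79 and 6.83 in SNEL#2 and 6.72 and 6.71 in SNEL#3, a difference of −0.01 ± 0.04, which was 0.39 with its 2 probes averaged (limma adjusted p = 0.0112). Pou5f1, the gene of Oct4 (0.24 ± 0.14), and Lin28a, an RNA-binding protein that blocks let-7 (0.19 ± 0.08), did not pass in both lines. In a fit of only the 6 arrays Pou5f1 passed (larger limma adjusted p of the 2 lines 0.0299). The array probes read total transcript, so endogenous RNA and RNA of any integrated factor that shares the probe sequence cannot be told apart.

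The naive pluripotency list went the same way, with 13 of 30 members higher (43.3%) and 1 lower (3.33%). Over all genes 11.8% were called higher and 11.3% lower. Dppa3, a protein that shields DNA methylation in the egg, was −1.06 and −1.05 in OSKM#2, 0.21 and 0.20 in SNEL#2, 0.87 and 1.04 in SNEL#3 and 2.99 and 3.36 in the ESCs, so the SNEL lines lay between OSKM#2 and the ESCs. Prdm14, a repressor of differentiation, was 2.38 and 2.37 in OSKM#2, 3.61 and 3.76 in SNEL#2, 3.34 and 3.31 in SNEL#3 and 3.72 and 3.64 in the ESCs. Tfcp2l1, a self-renewal factor downstream of LIF, was 0.87 ± 0.06 higher and Nr0b1, an orphan nuclear receptor, 0.86 ± 0.10. Dnmt3l, the cofactor of the de novo DNA methyltransferases, was the member called lower. It had 6.47 and 6.27 in OSKM#2, 3.40 and 3.45 in SNEL#2, 4.93 and 4.96 in SNEL#3 and 3.22 and 3.05 in the ESCs, a 4.53-fold difference in which SNEL#3 lay between. Dnmt3b, one of those methyltransferases, was lower as well (−0.81 ± 0.07), while the list of DNA methylation genes had 6 of 24 members higher (25%) and 2 lower (8.33%). That count of 6 was 3 without SNEL#2 replicate 2. The median difference over the naive list was 0.21, against 0.05 over all genes, and 0.11 after quantile normalization, 0.13 in the value table of the authors and 0.35 with probes averaged. Side by side with the ESCs, the list median was 0.21 in the SNEL lines and −0.12 in OSKM#2. Primed epiblast genes were mixed, with 4 of 19 higher (21.1%) and 5 lower (26.3%). Among the higher were the Nodal antagonists Lefty1 (1.00 ± 0.07) and Lefty2 (1.20 ± 0.08). Among the lower were the POU factor Pou3f1 (−1.44 ± 0.12) and the SOX factor Sox3 (−0.98 ± 0.15).

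**Figure D3:**
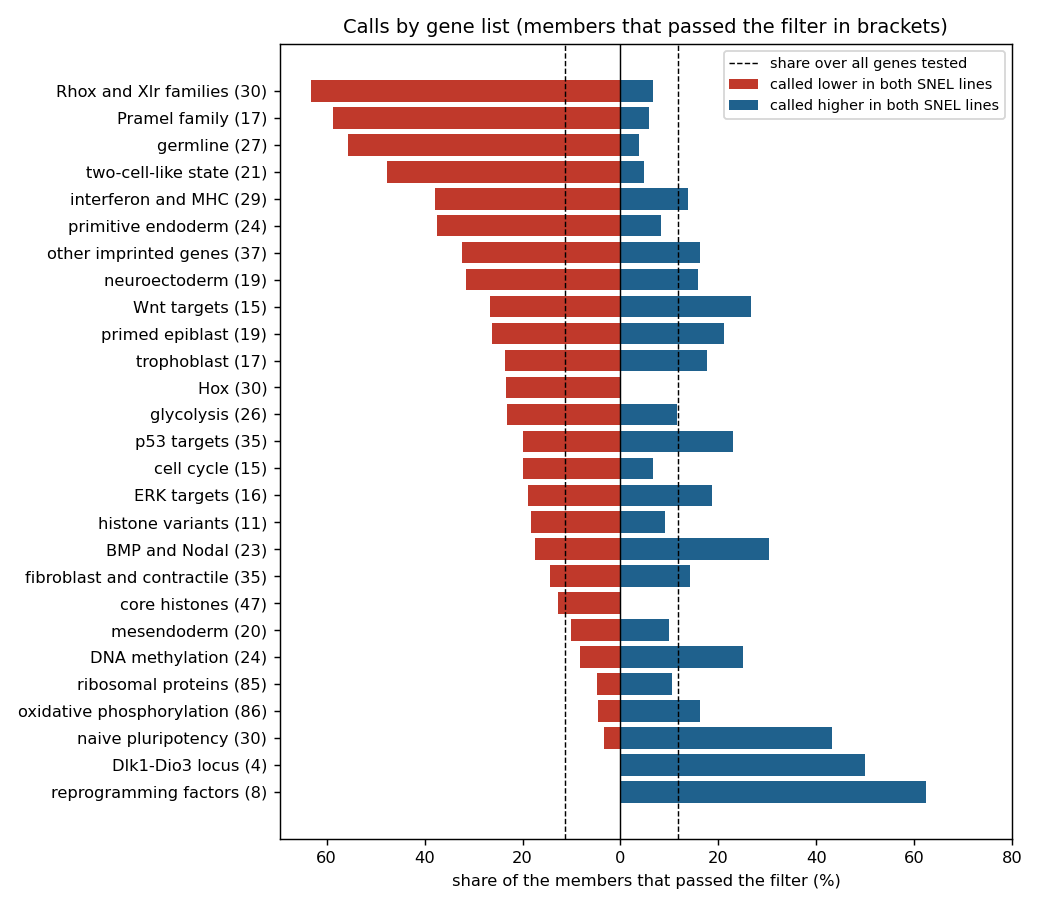
Share of the members of each gene list that were called lower (red, to the left) or higher (blue, to the right) in both SNEL lines, as percent of members that passed the filter (number in brackets). Dashed lines mark the shares over all 27069 genes, 11.3% lower and 11.8% higher, and the Rhox and Xlr, Pramel, germline and two-cell-like lists reach 63.3%, 58.8%, 55.6% and 47.6% lower.

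In 4 lists of genes that are normally restricted to germ cells or the early embryo, more members were called lower than higher in both SNEL lines, with 1 or 2 members higher in each. Over all genes 11.3% were lower and 11.8% higher. In the list of Rhox, Xlr and related X-linked germline genes 30 of 40 members with a probe passed the filter, 19 were lower and 2 higher, with medians of −2.20 for SNEL#2 and −2.28 for SNEL#3. The lists were chosen with earlier results of these data known, and members with levels near background passed the filter through the lines in which they were bright. Of the 30 members 9 were well above background on all 6 arrays, and the separate fit of only such probes called 5 of 9 members lower. Against the ESCs the list median was 1.87 in OSKM#2 and 0.01 in the SNEL lines.

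Xlr3b, an X-linked imprinted chromatin protein gene, had 2.08 and 1.98 in OSKM#2, −4.33 and −4.81 in SNEL#2, −3.17 and −3.33 in SNEL#3 and −3.52 and −3.18 in the ESCs (difference −5.94 ± 0.16, limma adjusted p = 1.45e-11 and 9.33e-11). Its OSKM#2 level lay far above the others, and the SNEL#3 and ESC values overlapped. Xlr5c had 1.86 and 1.85 in OSKM#2 and −7.15 to −6.00 on the SNEL arrays, none of them well above background, and was at least 99.7-fold lower. Xlr5b (at least 76.6-fold) and the homeobox gene Rhox2c (at least 19.5-fold) followed. In such a bound the mean of the bright group is divided by a floor for the dim one: on each dim array the probe's own value or, where larger, the dimmest value still well above background. Rhox5, the founding member of the Rhox cluster, was lower by less (−1.53 ± 0.05). Rhox6 and Rhox9, which lie in the same cluster and are expressed in placenta and germ cells, were higher (1.19 ± 0.09 and 0.89 ± 0.06). Copies within these families are near-identical, so a probe can read several of them.

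The Pramel family, leucine-rich repeat proteins of the testis and early embryo, had 10 of 17 members lower (58.8%) and 1 higher (5.88%). Pramel14 had 2.31 and 2.25 in OSKM#2, −3.66 and −3.41 in SNEL#2, −3.31 and −3.18 in SNEL#3 and −2.60 and −2.53 in the ESCs, and was 50.8-fold lower. Pramel12 was the member called higher (1.11 ± 0.07). Among genes of the two-cell-like state, a rare state of ESC cultures that resembles the early embryo, 10 of 21 were lower (47.6%) and 1 higher (4.76%). Zscan4f, a zinc finger gene linked to telomere upkeep, had 2.34 and 2.24 in OSKM#2, −2.32 and −2.39 in SNEL#2, −6.09 and −4.36 in SNEL#3 and 0.67 and 0.56 in the ESCs. Here the ESCs lay between OSKM#2 and SNEL#2, and SNEL#3 was lowest, not well above background on either array. Zscan4a (−4.67 ± 0.64) and Gm4340 (−5.24 ± 0.17) were lower too, and Gm8300 was at least 8.55-fold lower, while Zfp352, a zinc finger gene of early embryos, was higher (0.71 ± 0.12). With only members well above background on all 6 arrays kept, the lower calls numbered 1 of 4 two-cell-like genes and 3 of 6 Pramel genes. Most of these calls thus concern genes not well above background on every SNEL array. Of the 10 lower genes of each list, 3 two-cell-like and 6 Pramel genes were well above background on no SNEL array. With normexp background correction the list median moved from −2.02 to −0.42 for two-cell-like genes and from −2.30 to −0.93 for the Rhox and Xlr list.

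Autosomal germline genes had 15 of 27 members lower (55.6%, against 11.3% of all genes) and 1 higher (3.7%, against 11.8%). The separate fit of only probes well above background on all 6 arrays called 13 of 21 members lower. The list median of −0.68 was −0.32 with normexp background correction. Tuba3a, a testis alpha-tubulin, had 6.12 and 6.03 in OSKM#2, 1.77 and 1.76 in SNEL#2, 1.90 and 1.87 in SNEL#3 and 4.26 and 3.94 in the ESCs, a 19-fold difference (limma adjusted p = 6.8e-13 and 6.13e-13). Both of its probes had all 4 SNEL values below both OSKM#2 values. Tuba3b, a near-identical copy, differed by −3.64 ± 0.32. Rpl10l, an autosomal, testis-expressed copy of the X-linked ribosomal protein gene Rpl10, had 6.45 and 6.39 in OSKM#2, 3.04 and 3.05 in SNEL#2, 2.82 and 2.95 in SNEL#3 and 3.70 and 3.82 in the ESCs. Rpl39l, another testis ribosomal copy, counted in the ribosomal list, was also lower (−2.85 ± 0.06). Smc1b, the cohesin subunit of meiosis, had 2.08 and 2.09 in OSKM#2, −0.54 and −0.42 in SNEL#2, −0.54 and −0.43 in SNEL#3 and 2.07 and 1.92 in the ESCs. For Smc1b OSKM#2 and the ESCs were alike and the SNEL lines stood apart, whereas for Rpl10l the SNEL lines and the ESCs were nearer to each other. The RNA-binding protein Dazl was lower (−2.81 ± 0.09) and the helicase Ddx4 higher (1.12 ± 0.09), both being germ cell genes. Side by side with the ESCs, the list median was −1.41 in the SNEL lines and −0.10 in OSKM#2.

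Many germline promoters are silenced by DNA methylation and by the repressors E2F6 and the MGA-MAX complex, which bind TCCCGC and the E-box CACGTG. The promoters of Tuba3a, Tuba3b, Rpl10l and Smc1b are shown because these genes had the largest calls of the list, by the smaller of the 2 line differences: the 250 bases before the start of the transcript, 5′ to 3′ on the strand of the gene, from RefSeq on GRCm38.p6, with TCCCGC on either strand (GCGGGA on the other) and CACGTG in capitals.
Tuba3a, chr6:125286082-125286331, minus strand: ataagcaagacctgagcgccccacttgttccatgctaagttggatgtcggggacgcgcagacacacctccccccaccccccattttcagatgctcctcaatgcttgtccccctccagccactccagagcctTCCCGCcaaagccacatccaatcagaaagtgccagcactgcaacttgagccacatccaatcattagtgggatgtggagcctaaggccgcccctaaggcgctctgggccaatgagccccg
Tuba3b, chr6:145615713-145615962, plus strand: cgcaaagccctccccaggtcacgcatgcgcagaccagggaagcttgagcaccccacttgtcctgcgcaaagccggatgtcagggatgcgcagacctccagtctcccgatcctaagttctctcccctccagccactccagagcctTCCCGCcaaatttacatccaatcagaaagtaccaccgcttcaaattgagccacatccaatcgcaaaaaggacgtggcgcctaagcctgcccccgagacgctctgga
Rpl10l, chr12:66284402-66284651, minus strand: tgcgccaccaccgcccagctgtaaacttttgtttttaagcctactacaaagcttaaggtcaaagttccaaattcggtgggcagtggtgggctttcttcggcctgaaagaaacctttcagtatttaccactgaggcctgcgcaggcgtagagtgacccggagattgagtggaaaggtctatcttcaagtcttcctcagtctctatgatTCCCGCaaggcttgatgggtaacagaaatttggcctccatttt
Smc1b, chr15:85131958-85132207, minus strand: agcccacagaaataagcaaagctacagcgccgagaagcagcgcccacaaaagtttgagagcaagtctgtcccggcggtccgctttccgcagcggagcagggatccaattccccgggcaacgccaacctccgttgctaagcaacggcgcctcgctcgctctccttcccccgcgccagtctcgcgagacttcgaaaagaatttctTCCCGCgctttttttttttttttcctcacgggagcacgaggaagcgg

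Each of these 4 windows held 1 TCCCGC and 0 CACGTG. In the list as a whole the motifs did not separate lower from other genes. TCCCGC was found in 6 of the 15 lower genes (40%) and in 4 of the 11 others with a promoter in the table (36.4%), and CACGTG in 6 of 15 (40%) and 6 of 11 (54.5%). Over all 27025 promoters of the same length 16.9% held TCCCGC and 6.05% held CACGTG, and over the 13402 genes tested that had a promoter 26.5% and 7.77%. The windows of the Rhox and Xlr genes called lower held TCCCGC in 0 and CACGTG in 2 of 18 cases, and those of the Pramel genes held neither in 10 of 10. A match says that the letters are present, not that a factor binds.

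Other imprinted genes had 6 of 37 members higher (16.2%) and 12 lower (32.4%), beside 11.8% and 11.3% of all genes. With probes averaged 4 were higher and 9 lower. The lower count was 8 without OSKM#2 replicate 1 and 16 with slide as a block. Peg12, a paternally expressed gene of the Prader-Willi region, had 0.50 and 0.33 in OSKM#2, −2.54 and −2.34 in SNEL#2, −2.54 and −2.59 in SNEL#3 and −0.51 and −0.35 in the ESCs, and was 7.54-fold lower. Sgce, a paternally expressed sarcoglycan (−1.95 ± 0.13), was lower too. H19, the maternally expressed noncoding RNA next to Igf2, had −3.36 and −3.20 in OSKM#2, −2.22 and −2.05 in SNEL#2, −1.85 and −2.05 in SNEL#3 and −0.21 and −0.31 in the ESCs (1.24 ± 0.12). The SNEL lines lay between OSKM#2 and the ESCs in H19. All SNEL values lay below both OSKM#2 values in 1 of 2 Peg12 probes, and above them in 4 of 7 H19 probes. Peg13, a noncoding RNA of the paternal copy, was 0.96 ± 0.10 higher. Imprinted genes thus moved both ways, and the size in the Meg3 to Mirg stretch was not matched by a called member of the wider list.

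Markers of primitive endoderm, the extraembryonic lineage that pluripotent cells can form in culture, had 9 of 24 members lower and 2 higher. These shares were 37.5% and 8.33%, beside 11.3% and 11.8% of all genes. Hnf4a, a nuclear receptor of visceral endoderm and liver, had 0.02 and −0.10 in OSKM#2, −4.54 and −4.42 in SNEL#2, −5.44 and −4.74 in SNEL#3 and −3.29 and −2.88 in the ESCs (−4.74 ± 0.20). Cited1, a transcriptional coregulator, was lower (−2.15 ± 0.10). Col4a1 (−2.98 ± 0.09) and Col4a2 (−2.23 ± 0.14), the chains of basement membrane collagen, lie on chromosome 8. The laminin chains Lama1 (1.07 ± 0.05) and Lamb1 (0.57 ± 0.05) of the same membrane were higher. Of the 6 fixed markers that define the lineage, all were well above background on both OSKM#2 arrays, 5 on both of SNEL#2 and 2 on both of SNEL#3. Sox17, Dab2 and Foxa2 were called lower, and Gata4, Gata6 and Sox7 were not called. Each of the latter passed for SNEL#3 alone, Sox7 as higher (1.55 ± 0.46), Gata4 (−0.38 ± 0.14) and Gata6 (−0.65 ± 0.16) as lower. Sox7 was −3.20 and −3.55 in OSKM#2 and −1.90 and −1.75 in SNEL#3. The summed level of the 6 markers was 0.72 to 0.81 in OSKM#2, 0.56 to 0.62 in SNEL#2, 0.66 to 0.69 in SNEL#3 and 1.41 to 1.68 in the ESCs. Like sums again do not mean like markers, and their part in the calls of the list was not tested. With only members well above background on all 6 arrays the count of lower genes was 5.

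Neuroectoderm genes had 6 of 19 members lower and 3 higher, the latter 0 with probes averaged. These shares were 31.6% and 15.8%, beside 11.3% and 11.8% of all genes. Olig1, a transcription factor of the oligodendrocyte lineage, is not counted in this list and was named for the size of its difference. It had −0.08 and −0.04 in OSKM#2, −6.30 and −5.65 in SNEL#2, −5.18 and −5.63 in SNEL#3 and 1.85 and 1.67 in the ESCs, and was at least 26.4-fold lower. The SNEL arrays were not above background, while OSKM#2 and the ESCs were. Hes5, a Notch target, was lower as well (−1.89 ± 0.13). Hox genes, which pattern the body axis, had 7 of 30 members lower (23.3%) and 0 higher, with Hoxc4 at −1.83 ± 0.11. The lower count was 2 of 6 when members had to be detected on all 6 arrays. Mesendoderm genes had 2 of 20 higher and 2 lower (10% each way, near the shares of all genes). Trophoblast genes had 3 of 17 higher (17.6%) and 4 lower (23.5%). The trophoblast markers summed to 2.03 to 2.13 in SNEL#2, 0.85 to 0.94 in the other iPSC lines and 3.13 to 3.29 in the ESCs. Krt7 alone made most of the SNEL#2 sum, at 0.85 and 0.76 there. It was −0.85 and −0.78 in OSKM#2, −0.39 and −0.30 in SNEL#3 and 1.06 and 0.90 in the ESCs. Of these markers Krt7 was called higher and Gata3 lower. Fibroblast and contractile genes had 5 of 35 higher and 5 lower (14.3% each way, near the shares of all genes). They had 3 higher and 3 lower without OSKM#2 replicate 2 and 3 lower without OSKM#2 replicate 1.

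Interferon-induced and antigen presentation genes were split, with 4 of 29 higher and 11 lower. These shares were 13.8% and 37.9%, beside 11.8% and 11.3% of all genes. The list median was nevertheless 0.16 for SNEL#2 and 0.08 for SNEL#3, beside 0.07 and 0.04 over all genes. For the mean of both lines it was 0.17, and −0.33 in the separate fit of only probes well above background on all 6 arrays. Psmb9, a subunit of the immunoproteasome, had 0.17 and 0.07 in OSKM#2, −1.64 and −1.79 in SNEL#2, −2.01 and −2.02 in SNEL#3 and 0.11 and −0.10 in the ESCs (−1.98 ± 0.10). The peptide transporter subunit Tap2 (−1.75 ± 0.11), the MHC class I gene H2-D1 (−1.36 ± 0.05) and the double-stranded RNA sensor Oas1a (−1.36 ± 0.07) were lower. Ifitm3, an antiviral membrane protein that also marks early germ cells, had 4.31 and 4.25 in OSKM#2, 5.60 and 5.61 in SNEL#2, 5.63 and 5.60 in SNEL#3 and 5.49 and 5.44 in the ESCs. In Ifitm3 OSKM#2 stood below the SNEL lines and the ESCs.

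Signalling targets moved in both directions within each pathway, as did all genes (11.8% higher and 11.3% lower). The shares higher and lower were 30.4% and 17.4% for BMP and Nodal genes. They were 18.8% each way for ERK targets and 26.7% each way for Wnt targets. Of the BMP and Nodal genes 7 of 23 were higher and 4 lower, the latter 2 without OSKM#2 replicate 1. Id3, a direct BMP target that blocks differentiation, had 0.96 and 0.87 in OSKM#2, 3.25 and 3.22 in SNEL#2, 3.34 and 3.37 in SNEL#3 and −1.67 and −1.87 in the ESCs, and was 5.21-fold higher. All 3 iPSC lines lay above the ESCs. Id4 was higher (1.43 ± 0.09) and Id1, from the same family of BMP targets, lower (−1.28 ± 0.15). Among ERK targets 3 of 16 were higher and 3 lower: the feedback inhibitors Spry2 (1.70 ± 0.06) and Dusp6 (1.09 ± 0.06) were higher, while the ETS factor Etv4 (−3.20 ± 0.09) and the early response gene Ier3 (−1.74 ± 0.06) were lower. Etv4 was 5.08 and 4.87 in OSKM#2, 0.83 and 0.85 in SNEL#2, 2.71 in both SNEL#3 arrays and 0.73 and 0.46 in the ESCs. Wnt targets had 4 of 15 members in each direction, with the Wnt antagonist Notum (1.12 ± 0.05) and the factor Sp5 (1.34 ± 0.08) among the higher ones.

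Among lists of basic cell functions the higher counts depended on scaling or on single arrays in several. Over all genes 11.8% were called higher and 11.3% lower. Oxidative phosphorylation genes had 14 of 86 higher and 4 lower, but 6 higher and 7 lower after quantile normalization, and 8 and 9 higher without SNEL#3 replicate 1 and OSKM#2 replicate 2. Ribosomal protein genes had 9 of 85 higher (10.6%, near the share of all genes) and 4 lower (4.71%). Their higher count was 0 after quantile normalization or in the value table of the authors. It was 2 to 6 with any 1 of the 6 arrays left out. Of p53 targets 8 of 35 were higher and 7 lower, and 3 higher in the value table of the authors. Glycolysis genes had 6 of 26 lower (23.1%, against 11.3% of all genes), and 8 lower after quantile normalization. They had 3 higher, which became 1 without SNEL#3 replicate 1 or in the value table of the authors. Core histones had 0 of 47 higher and 6 lower (12.8%, near the share of all genes).

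Apart from the lists, single genes differed by more than any list median. The naming rule took the 12 largest calls in each direction outside chromosome 8 and the 4 largest lower calls on it, and all 28 kept direction and call in each alternative that measured them. Cd99, a surface glycoprotein, had −0.54 and −0.61 in OSKM#2, 3.87 and 3.90 in SNEL#2, 3.74 and 3.68 in SNEL#3 and 3.49 and 3.17 in the ESCs, and was 20.7-fold higher. Miip, an inhibitor of cell migration, had −2.63 and −2.64 in OSKM#2, 0.51 and 0.55 in SNEL#2, 1.35 and 1.23 in SNEL#3 and 0.65 and 0.68 in the ESCs, and was 11.7-fold higher. In both, OSKM#2 stood apart from the other 3 lines. The zinc finger gene Zfp874a had −5.28 and −3.99 in OSKM#2, well above background on 1 of its 2 arrays, and −0.13 to 0.03 on the SNEL arrays, close to the −0.10 and −0.01 of the ESCs. Gpnmb, a transmembrane glycoprotein (3.17 ± 0.16), Trpm1, a cation channel (2.96 ± 0.05), and Lrrc15, a leucine-rich repeat membrane protein (3.05 ± 0.05), were also higher. Xpnpep2, a membrane aminopeptidase, was at least 12.3-fold higher and Ube2dnl, a ubiquitin-conjugating enzyme gene on the X chromosome, at least 7.33-fold. Zfp521 (3.17 ± 0.18), a zinc finger gene of chromosome 18, and Cd300e (2.79 ± 0.27), a myeloid receptor, completed the 12 with Meg3 and Mirg.

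Among the lower genes, Ubd, the interferon-inducible ubiquitin-like protein FAT10, had 2.75 and 2.64 in OSKM#2, −6.97 and −7.39 in SNEL#2, −6.14 and −6.63 in SNEL#3 and 0.93 and 0.79 in the ESCs, and was at least 179-fold lower. Its probe lies at chr17:37332688-37332747 (mm9). Trim12a, a tripartite motif protein, had 1.56 and 1.54 in OSKM#2, −5.04 and −5.06 in SNEL#2, −5.98 and −6.40 in SNEL#3 and 0.91 and 0.74 in the ESCs, and was at least 77.1-fold lower. In both genes the ESCs were near OSKM#2 and the SNEL arrays not above background. Wdr95, a WD repeat gene, was at least 47.9-fold lower, DXBay18, an X-linked transcript, at least 46.3-fold, Dnajc5g, a DnaJ chaperone of the testis, at least 37.7-fold, and Efhc2, an EF-hand protein, at least 34.4-fold. With the Xlr, Rhox, Pramel and Olig1 genes given above, these are the 12.

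The rule left out probes without a gene symbol, and some of those differed by more (they were singled out after their values were seen). A probe at chr13:19617464-19617523 (mm9) had −7.26 and −7.73 in OSKM#2 and 1.58 to 1.77 on the SNEL arrays, at least 156-fold higher. Probes at chr13:31775719-31775778 and chr13:31760415-31760474, named for opposite strands of 1 stretch, were at least 99.5-fold and 82.7-fold higher. Gm10499, a predicted gene whose probe lies at chr17:36278728-36278787, had 3.63 and 3.66 in OSKM#2, 4.17 and 4.12 in the ESCs and −7.24 to −6.03 on the SNEL arrays, at least 344-fold lower.

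**Figure D4:**
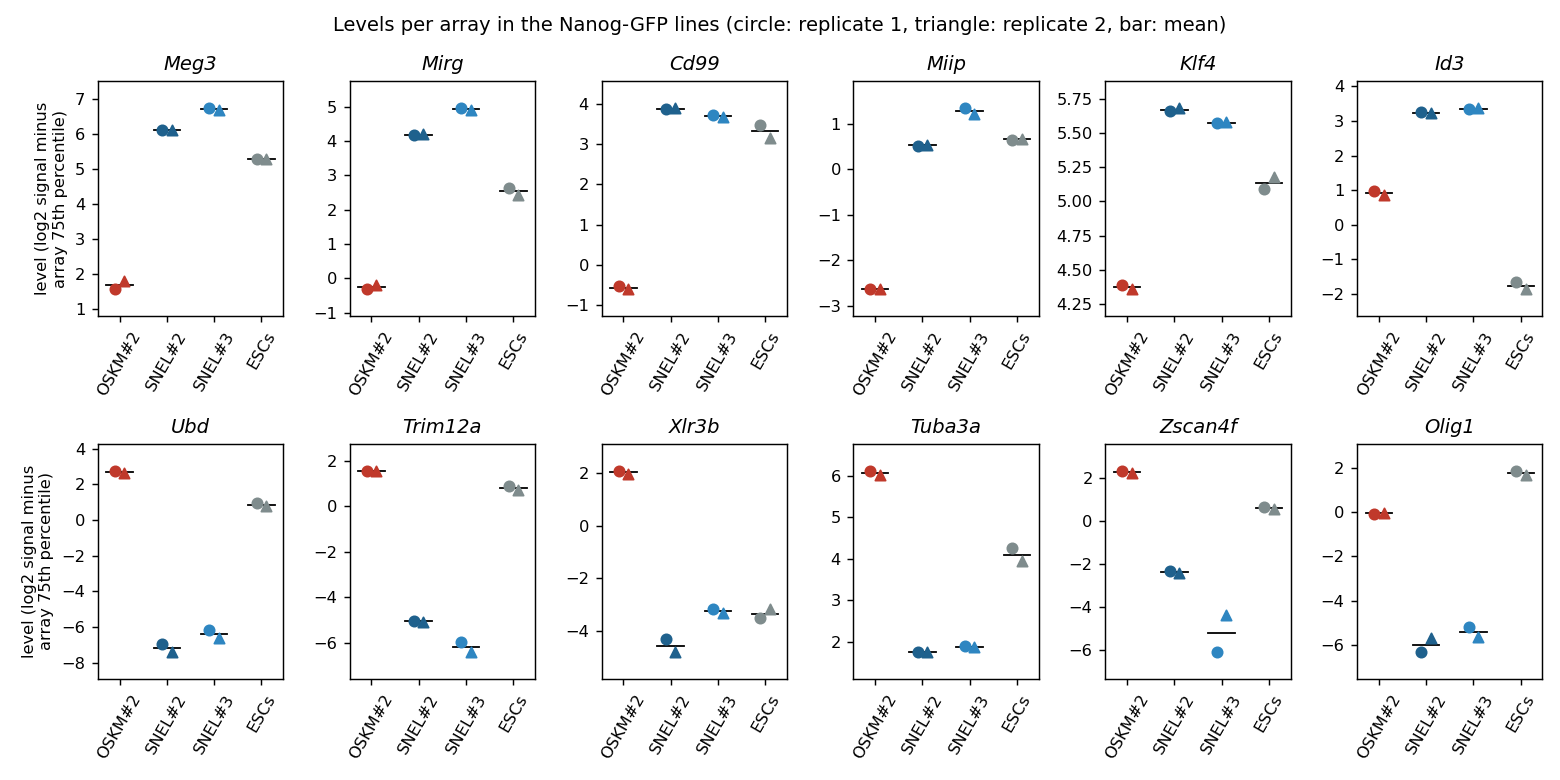
Level of 12 genes (y axis, log2 signal minus the array's 75th percentile, its range differing between panels) on each array of OSKM#2, SNEL#2, SNEL#3 and the Nanog-GFP ESCs. The 6 genes above were called higher and the 6 below lower in both SNEL lines, with the ESCs nearer to the SNEL lines for Cd99 and Xlr3b and nearer to OSKM#2 for Ubd, Trim12a and Olig1.

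A second fit asked whether the differences exceed the spread between lines rather than between arrays. It averaged the arrays of each of the 10 lines of the series. Groups were Nanog-GFP SNEL (2 lines), Nanog-GFP OSKM (1), Oct4-GFP SNEL (1), other OSKM (3) and ESCs (3). The spread came from the groups with several lines, of which the other OSKM and ESC groups mix lines of different origin. This fit assumed that the lone OSKM#2 line varies like the others. By limma it called 20 genes higher (0.0739% of those tested) and 64 lower (0.236%). At an unadjusted p under 0.05 there were 2836 genes, and 79 of the 84 called were also called over arrays. Without SNEL#2 the count was 15 and without SNEL#3 it was 10. Of the 28 genes named by size 12 passed this fit, among them Xlr5c and Xlr5b (limma adjusted p = 0.00187 for each), Olig1 (0.00187), Ushbp1 (0.00187), Wdr95 (0.00568), Cd99 (0.0077) and Miip (0.0192). Meg3 (0.38), Mirg (0.285), Ubd (0.399) and Klf4 (0.215) did not pass. Of the lists, the Rhox and Xlr list had 6 members lower in this fit, primitive endoderm 3 (Col4a1, Col4a2 and Cited1), the ribosomal list 2 (Rpl10l and Rpl39l) and the germline list 1 (Rpl10l). In some genes of this fit the OSKM#2 arrays differed from each other: Cd247, a T cell receptor chain, was 0.82 and −3.51 there, and Btnl2, a butyrophilin-like gene, 0.50 and −4.68.

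Genes of chromosome 8 were lower in both SNEL lines as a block. The median difference over its 1461 genes, relative to all genes, was −0.26 for SNEL#2 and −0.27 for SNEL#3, against −0.04 to 0.05 on the other chromosomes. Called lower were 381 of these genes (26.1%), against 10.4% of the genes elsewhere, and called higher 59 (4.04% against 12.2%). It was seen in OSKM#2: relative to the ESCs the chromosome 8 median was 0.29 in OSKM#2, 0.05 in SNEL#2 and 0.03 in SNEL#3. It ran along the chromosome. Of 13 bins of 10 Mb (the last one longer), 12 had negative medians in both SNEL lines, and the exception was the bin from 50 Mb, with 39 genes and medians of 0.11 and 0.16. Over the 2 SNEL lines and 2 slides the mean chromosome 8 median was −0.26, with an SD of 0.024 over 4 values. These are not independent, because both lines were set against the same OSKM#2 array on each slide. The SD does not measure the spread between OSKM lines. Copy number was not measured. Single genes of chromosome 8 differed by much more. Ushbp1, a binding partner of harmonin, had 3.42 and 3.57 in OSKM#2, −2.58 and −2.15 in SNEL#2, −1.68 and −1.72 in SNEL#3 and −1.76 and −1.68 in the ESCs. Trim67, a neuronal ubiquitin ligase, was at least 4.18-fold lower. With chromosome 8 left out 3125 genes were higher and 2675 lower in both SNEL lines.

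**Figure D5:**
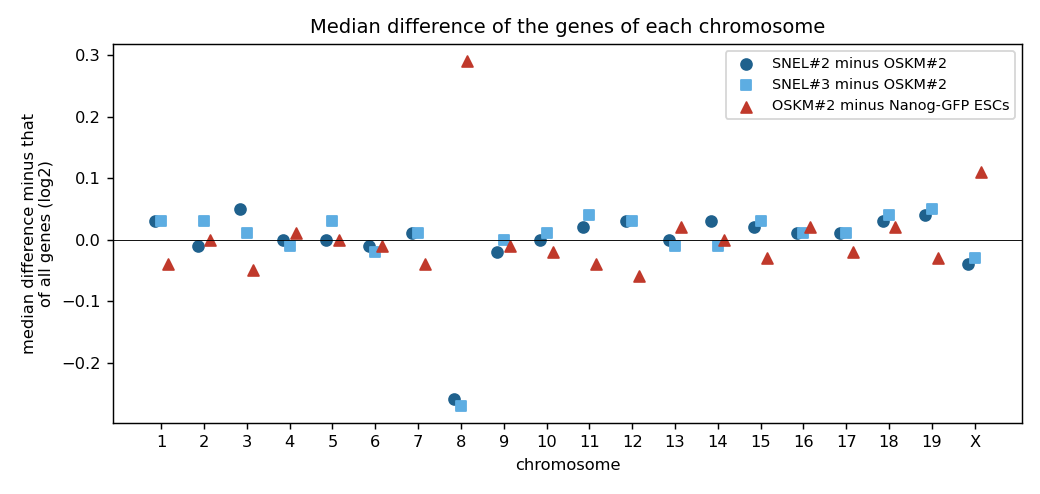
Median log2 difference of the genes of each chromosome, minus the median of all genes, for SNEL#2 and SNEL#3 against OSKM#2 (blue circles and light blue squares) and for OSKM#2 against the Nanog-GFP ESCs (red triangles). Chromosome 8 stands at −0.26, −0.27 and 0.29, outside the range of the other chromosomes.

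The 2 SNEL lines, which differ in their grade, also differed from each other. Limma called 4396 genes between them (16.2%), 751 of them by at least 2-fold, and 1584 of the 6240 genes called against OSKM#2 were among these. In 219 genes both SNEL lines differed from OSKM#2 in opposite directions. The largest differences between them, by a rule chosen after the values were seen, included Stra8, the gatekeeper of meiosis, at 1.51 on both SNEL#2 arrays and −2.13 and −2.08 in SNEL#3, with 1.45 and 1.43 in OSKM#2. Zscan4e was −2.25 and −2.20 in SNEL#2 and −6.15 and −6.66 in SNEL#3. The glycerol kinase gene Gk was −4.31 and −4.01 in SNEL#2 and −0.55 and −0.53 in SNEL#3. Collagen I (Col1a1) was −1.28 and −1.36 in SNEL#2, −5.08 and −5.07 in SNEL#3 and −3.54 and −3.58 in OSKM#2, so the SNEL lines lay on either side of OSKM#2. Of the 12 fibroblast markers 7 were well above background on both SNEL#2 arrays and 2 on both SNEL#3 arrays.

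Lines of Oct4-GFP origin gave a comparison on other arrays, with Oct4-GFP SNEL#1 against Oct4-GFP OSKM#2 (1 line of each set, 2 arrays each). Calls there needed only a limma adjusted p below 0.05, without the rule on background. Replicate 2 lay on slide 3 for Oct4-GFP SNEL#1 and on slide 2 for Oct4-GFP OSKM#2, so line and slide are partly mixed. Well above background were 49.5% and 68.0% of the probes in the former and 67.8% and 64.8% in the latter. Of the 3184 genes higher in both Nanog-GFP SNEL lines 614 were also called higher there (19.3% of the Nanog-GFP list and 18.8% of the Oct4-GFP list) and 1128 were called lower. Of the 3056 lower genes 838 were also lower (27.4% and 15.3%) and 841 higher. Over all genes 12.1% were called higher and 20.3% lower in the Oct4-GFP comparison. Meg3 was 3.20 and 3.24 in Oct4-GFP OSKM#2 and 4.24 and 4.27 in Oct4-GFP SNEL#1, a rise of 1.03, and Mirg did not pass (0.10). Germline genes had a median of 0.73 and two-cell-like genes of 0.43 in that comparison, against −0.68 and −2.02 in the Nanog-GFP lines. The difference between the 2 origins passed limma's interaction test for 9830 genes (36.3%), and for 11254 with slide as a block.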

How the data were processed

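The series holds 20 Agilent arrays (design 028005, Cy3) of RNA from 10 mouse pluripotent lines, 2 per line, and 6 arrays of 3 lines are described here. Per the file headers, the deposited scanner files were made with Feature Extraction 10.1.1.1 and hold background-subtracted intensity per spot with mm9 probe coordinates. The value table deposited by the authors holds log2 values with nearly equal column medians (6.44 to 6.45), scaled in a way that the sources used here do not state, and served as an alternative. The submitters' processing notes name limma without a version.

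Of 55681 probes, 26407 matched a RefSeq symbol by accession. Control spots and outlier spots were left out. Each array's 75th percentile was subtracted from its log2 signals. A probe was kept if 4 or more of the 20 arrays had it well above background (38756 probes), and a gene was read from its brightest probe (27069 genes). Limma 3.58.1 in R 4.3.3 fitted the 20 arrays with line as group (10 residual degrees of freedom) and, separately, 10 line means in 5 groups (5 residual degrees of freedom), with Benjamini-Hochberg adjustment over all genes and a threshold of 0.05. Precision is limited by the number of arrays. The script was tested on simulated data.

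Replicate 1 of each of the 3 lines lay on slide 1 and replicate 2 on slide 2. The Nanog-GFP ESC arrays lay on slides 2 and 3. Deviations of same-numbered arrays from their line means correlated at 0.159 to 0.239, so the number, which is the slide, pairs the arrays, and a fit with it as a block was made. The members and gene lists were chosen with earlier results of these data known. The text names the 12 largest calls in each direction outside chromosome 8 by the smaller of the 2 line differences (symbol-named probes), 4 lower ones on chromosome 8, up to 4 called members per list and direction, the 8 factors and the Dlk1-Dio3 genes. One gene that this rule takes and 1 probe sequence are not reported here. Further called members and marker genes are given as examples chosen after their values were seen. Promoters came from RefSeq (GRCm38.p6) by symbol, with 1 window of 250 bases per gene. Alternatives were background correction, scaling, filters, probe averaging, blocks and left-out arrays, lines or chromosome 8.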

Additional observations from a re-analysis of the deposited data

Results flagged for a closer look

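Genes whose SNEL minus OSKM difference was not the same in lines of Nanog-GFP and Oct4-GFP origin are listed here, from limma's interaction term over 20 arrays for the 5 leading genes in each direction, the 8 factors and the Dlk1-Dio3 genes. The difference in the Nanog-GFP lines minus that in the Oct4-GFP lines was 4.93 for Zfp874a, 4.73 for Mirg, 3.70 for Meg3 and 4.48 for Cd99. The size for Zfp874a rests on dim signals: it was −5.28 and −3.99 in Nanog-GFP OSKM#2 and −6.20 to −4.58 in the Oct4-GFP lines. The SNEL arrays of the Nanog-GFP lines were not well above background for the next 5 genes, so the size of their values is set by signals at background and is no measure of the fold. For Ubd it was −10.25, for Xlr5c −7.21, for Xlr5b −6.65, for Trim12a −8.06 and for Wdr95 −5.98. Ubd was −8.20 and −8.04 in Oct4-GFP OSKM#2 and −8.34 and −6.36 in Oct4-GFP SNEL#1, and Trim12a likewise stayed between −7.46 and −5.29 in both Oct4-GFP lines. Among the factors it was 4.06 for Myc, which was −0.60 and −0.45 in Oct4-GFP OSKM#2 and −3.71 and −3.69 in Oct4-GFP SNEL#1. It was 2.20 for Lin28a, 0.98 for Klf4, 0.62 for Sall4 and 0.60 for Esrrb, and 0.45 for Dio3. Over all genes 9830 passed this test, 36.3% of those tested.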

How the results depend on the processing

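The counts of genes higher and lower in both SNEL lines stayed within 1.5 times of the main counts under each alternative but the 2-fold rule, which left 331 and 1138. That rule also left 751 genes between the SNEL lines and 3536 between the origins (8567 to 9563 with 1 array left out). Quantile normalization gave 2540 higher and 3344 lower, normexp background correction 2940 and 2626, and the value table of the authors 2292 and 3104. Normexp moved the median over all genes to 0.12 for SNEL#2 and 0.16 for SNEL#3, from 0.07 and 0.04. With the replicate number (the slide) as a block, the 6 arrays gave 4115 higher and 3185 lower. Under this block Cnn1, H3f3b, Tbx6, Map2, Gata3 and Cox8c lost their calls (largest adjusted p 0.0526 to 0.0897), Pou5f1 gained one (0.0416), and no other call of a named gene changed. Leaving out 1 array gave 2285 to 2722 higher, 2340 to 2746 lower and 2781 to 4136 genes between the SNEL lines (2781 and 2846 without SNEL#2 replicate 1 and 2). The line fit gave 47 calls among probes detected on all 6 arrays and 10 to 136 with 1 line left out: 136 without Oct4-GFP OSKM#2, 44 without KH2_OSKM, 52 without KH2 ESCs, 24 without Oct4-GFP ESCs, 15 without SNEL#2 and 10 without SNEL#3. The cause was not tested. The chromosome 8 median of −0.26 was −0.17 with normexp, −0.18 in the value table and −0.29 among probes detected on all 6 arrays. Of 180 named genes 4 values changed sign: H3f3b in the value table (−0.17), Zic1 (−0.44) and Nanog (0.39) with probes averaged, and Nanog without OSKM#2 replicate 1 (0.02; −0.04 without replicate 2). Of 48 named genes with several probes, 31 had all of them on 1 side. Low signal over background limits the genes dim in the SNEL lines.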
